A study of Solanum lycopersicum with 4 samples.

Results

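TERMINATING FLOWER (TMF) and its BLADE-ON-PETIOLE partner genes BOP1, BOP2 and BOP3 were examined in shoot meristems of tomato (Solanum lycopersicum). They were taken by identifier, with no value in the rule: TMF is Solyc09g090180.1.1, BOP1 Solyc04g040220.2.1, BOP2 Solyc10g079460.1.1 and BOP3 Solyc10g079750.1.1, and they make up 4 of the 34727 genes listed. The identifiers place TMF on chromosome 9, BOP1 on chromosome 4, and BOP2 and BOP3 on chromosome 10. Messenger RNA was sequenced from tmf mutant plants and from wild-type plants, with 2 biological replicates of each genotype. Each library came from a pool of meristems of several plants, collected 8 days after germination. The labels call the stage late vegetative meristem, a name for an apex that still makes leaves. Floral organ markers were far higher in the mutant pools, as given below, so the name may not describe both genotypes alike. The sources used here name neither the mutant allele nor the cultivar, and the plants of both genotypes were raised in a greenhouse with no treatment named.

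TMF belongs to the ALOG proteins, plant nuclear regulators of transcription, and loss of its function in tomato leads to early flowering with single-flowered inflorescences. The BOP proteins are transcriptional co-regulators with a BTB domain and ankyrin repeats. They do not bind DNA themselves and act with DNA-binding partners. In Arabidopsis they work at the base of leaves and flowers, where they help to set organ boundaries and restrain meristem genes. In tomato, BOP proteins bind TMF, and plants that lack BOP function share flowering defects with tmf plants. The comparison asks whether the genes for these partners change at the transcript level when the TMF transcript is lost.

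The tmf libraries comprised 19674165 and 17540331 reads assigned to genes, and the wild-type libraries 28310492 and 22977411. A normalised read is 1 read in 10000000 of these, so each sequenced read was worth between 0.353 and 0.57. Counting intervals (95%, exact Poisson or binomial) take each read as a separate molecule, and counting error is meant in that sense throughout. PCR copies cannot be told from separate molecules, so the intervals may be too narrow. All 5 shoot meristem markers examined, WUS, CLV3, TKN2, GOB and LS, were read in every library, the lowest of them at 18 normalised reads. Their summed level was 4209 and 2031 in the tmf pools and 1727 and 2366 in the wild-type pools. The 3 floral organ markers EJ2, TM5 and J2 summed to 1467 and 409 in the tmf pools and to 6.71 and 9.57 in the wild-type pools. Floral transcripts were thus present in both mutant pools, and more so in replicate 1. Whether the pools of the genotypes were at the same stage was not tested. All 3 markers passed as higher in the mutant (limma adjusted p = 0.00118, 0.027 and 0.035), beside 0.131% of all genes tested. In pooled tissue, fewer cells with a transcript and less transcript per cell cannot be told apart.

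TMF itself was almost unread in both mutant pools. It had 6.1 normalised reads (12 reads, 95% counting interval 3.15 to 10.7) in mutant replicate 1 and 6.27 (11 reads, 3.13 to 11.2) in mutant replicate 2, against 1238 (3505 reads) and 2224 (5110 reads) in wild-type replicates 1 and 2. The genotypes lay far apart, with the mutant libraries at the 22.2 and 19.8 percentiles of the genes read in them and the wild-type libraries at the 92.6 and 96.8 percentiles. The log2 fold change was -7.85 ± 0.34 (SE), with a 95% interval of -8.64 to -7.07 (limma, Benjamini-Hochberg adjusted p = 7.72e-05), and 0.215% of the 21437 genes tested passed at an adjusted p under 0.05. No gene tested had a larger negative log2 fold change. Pooled over libraries, 23 mutant reads against 8615 wild-type reads gave a 272-fold lower level, with a counting interval of 181 to 429. The wild-type replicates differed from each other by a ratio of 1.8 (replicate 2 over replicate 1, counting interval 1.72 to 1.88), which is beyond counting error and small beside the difference between genotypes. At this gene the 4 libraries separated the way their genotype labels say.

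No fall of the BOP genes was detected beside that of TMF. All 3 were read at 217 to 530.2 normalised reads in every library, their mean levels in the mutant were between 1.16 and 1.36 times those in the wild type, and none passed the test over all genes. The share of tested genes that passed as lower was 0.084% and as higher 0.131%.

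BOP1 was at 217 and 332 normalised reads in the tmf pools, against 223 and 249 in wild-type pools. The genotypes overlapped: mutant replicate 1 was the lowest of the 4 libraries and mutant replicate 2 the highest. The means were 274 ± 81.9 for tmf and 236 ± 19 for wild type (SD, n = 2 each). The difference on the log2 scale was 0.19 ± 0.27 (SE; limma adjusted p = 0.999). Its 95% interval ran from -0.44 to 0.82, that is, from 0.735 to 1.76 times the wild-type level. Without mutant replicate 2 the sign turned, with a log2 fold change of -0.12 (adjusted p = 0.964), and without mutant replicate 1 it was 0.49.

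BOP2 was at 357 and 530.2 normalised reads in the tmf pools, against 297 and 396 in wild-type pools. The genotypes overlapped here too, since wild-type replicate 2 lay above mutant replicate 1. The means were 444 ± 122 for tmf and 347 ± 70.3 for wild type (SD, n = 2 each). The difference on the log2 scale was 0.34 ± 0.27 (SE; limma adjusted p = 0.994), with a 95% interval of 0.818 to 1.96 times the wild-type level. Leaving out mutant replicate 2 or wild-type replicate 1 brought the log2 fold change to 0.06 or 0.13, and leaving out mutant replicate 1 or wild-type replicate 2 to 0.63 or 0.55.

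BOP3 was at 389.9 and 480 normalised reads in the tmf pools, against 308 and 331 in wild-type pools. It was the only BOP gene whose tmf pools were both above the wild-type pools, an order seen in 20.7% of all genes tested. Among genes of like level (mean of 200 to 600 normalised reads), 797 of 5352 had this order. The means were 435 ± 63.8 for tmf and 319.6 ± 15.8 for wild type (SD, n = 2 each). The difference on the log2 scale was 0.44 ± 0.23 (SE; limma unadjusted p = 0.09, adjusted p = 0.883), with a 95% interval of 0.943 to 1.94 times the wild-type level. Leaving out a library gave log2 fold changes from 0.29 to 0.59.

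**Figure D1:**
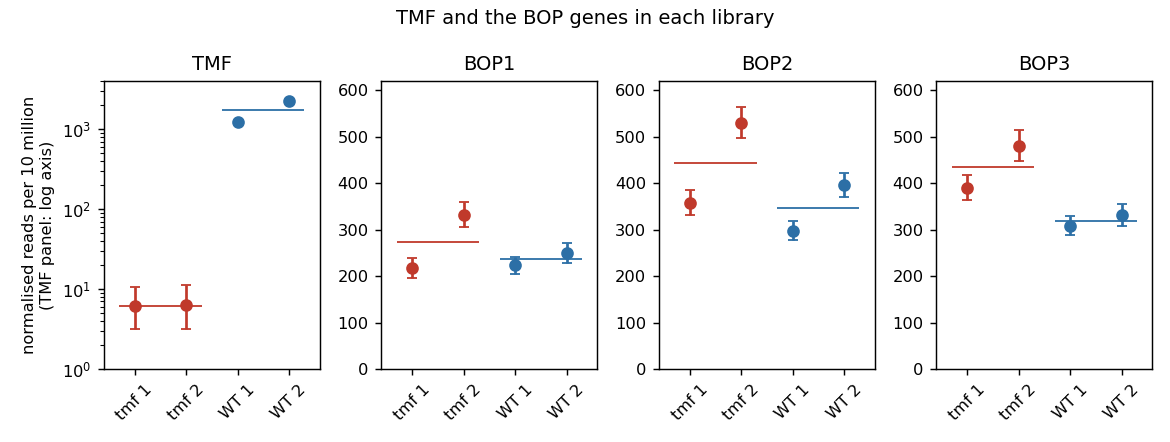
Normalised reads per 10000000 of TMF (log axis) and of BOP1, BOP2 and BOP3 (linear axes from 0) in tmf mutant replicates 1 and 2 (red) and wild-type (WT) replicates 1 and 2 (blue); bars are 95% exact Poisson counting intervals and horizontal lines are genotype means. TMF drops to 6.1 and 6.27 in the mutant, while each BOP gene stays between 217 and 530.2 in all libraries and is highest in mutant replicate 2.

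These single-gene intervals are not adjusted for the number of genes. At their ends, the deepest fall was to 0.735 times the wild-type level for BOP1, 0.818 for BOP2 and 0.943 for BOP3, and the largest rise was to 1.76 times for BOP1, 1.96 for BOP2 and 1.94 for BOP3. A p-value above the threshold does not show that the levels were equal. With 2 libraries per genotype an exact permutation test of a single gene cannot give a two-sided p below 0.333, so none is reported. Among the 5352 genes with a mean level of 200 to 600 normalised reads, the range that holds the BOP genes, 6 passed (0.112%), and no called change was smaller than 1.97 in log2 units. The middle 90% of those genes had log2 fold changes from -0.41 to 0.51, with a median of -0.01. All 3 BOP values lay inside that range and above that median. Over all genes tested the median log2 fold change was 0.04, and 55.7% of genes had a positive one.

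**Figure D2:**
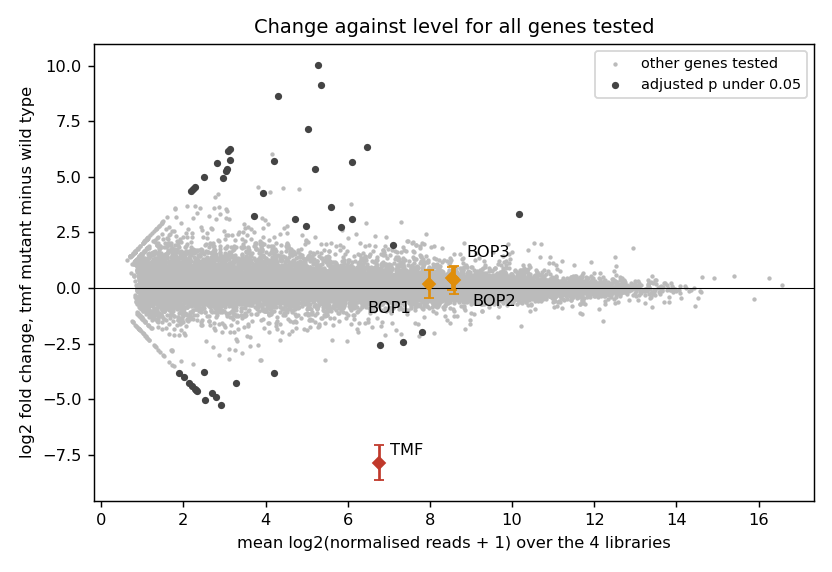
Log2 fold change (tmf mutant minus wild type) against the mean log2(normalised reads + 1) of the 4 libraries for the 21437 genes tested (grey), with genes at an adjusted p under 0.05 in black and TMF (red) and the BOP genes (orange) drawn with 95% intervals. TMF lies at -7.85, below all other genes, and BOP1, BOP2 and BOP3 lie at 0.19, 0.34 and 0.44 inside the cloud of genes of like level.

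The spread between tmf pools was of the same order as the difference between genotypes for the BOP genes. In the mutant, replicate 2 over replicate 1 gave a ratio of 1.54 for BOP1 (95% counting interval 1.35 to 1.74), 1.48 for BOP2 (1.34 to 1.64) and 1.23 for BOP3 (1.12 to 1.36). In the wild type the same ratio was 1.12 for BOP1 (0.999 to 1.26), 1.33 for BOP2 (1.21 to 1.47) and 1.07 for BOP3 (0.972 to 1.18). The counting interval of the mutant ratio thus excluded 1 in all 3 genes, whereas that of the wild-type ratio did so in BOP2 only. For BOP1 and BOP2 the mutant replicate ratio was larger than the ratio of genotype means (1.16 and 1.28), and for BOP3 it was smaller (1.36).

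Mutant replicate 2 was the highest library for each BOP gene, which held for 30.2% of all genes tested. The same library had the highest summed level of 3 Rubisco small subunit genes, markers of photosynthetic tissue that have close copies and may share reads, at 29636 normalised reads, against 15565 in mutant replicate 1. In the wild type the sum was 20868 in replicate 1 and 25419 in replicate 2. None of the 3 passed between genotypes (limma adjusted p = 0.999 each). BOP1 ordered the 4 libraries as this sum did, whereas BOP2 and BOP3 did not, both being lowest in wild-type replicate 1. The shoot meristem and floral organ markers had lower sums in mutant replicate 2 than in mutant replicate 1. What part leaf tissue had in the BOP levels was not tested.

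**Figure D3:**
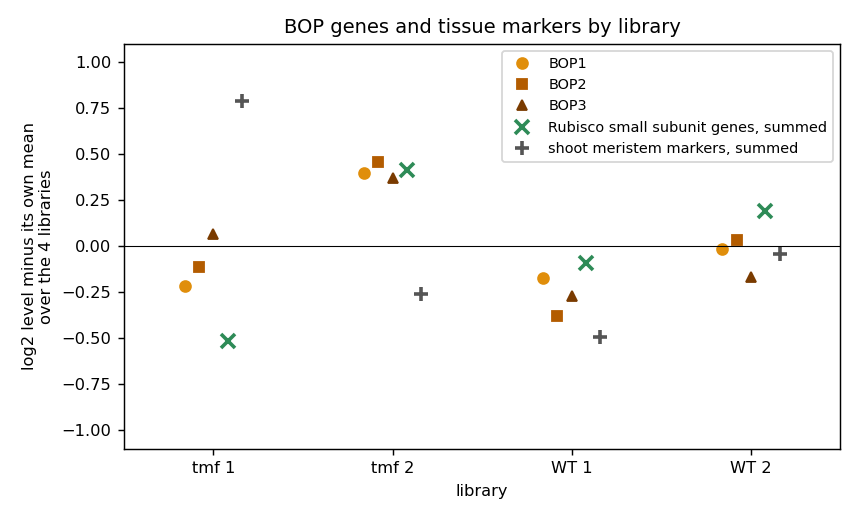
Log2 level minus its own mean over the 4 libraries (vertical axis) of BOP1, BOP2 and BOP3, of the summed Rubisco small subunit genes (3 genes) and of the summed shoot meristem markers (5 genes), in tmf mutant replicates 1 and 2 and wild-type replicates 1 and 2. The BOP genes and the Rubisco sum are highest in mutant replicate 2, while the meristem marker sum is highest in mutant replicate 1.

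The share of each BOP gene in the reads of all 3 moved by a few points between libraries. BOP1 took 22.5% (95% binomial interval 20.6 to 24.4) and 24.8% (23 to 26.6) of the BOP reads in mutant replicates 1 and 2, against 26.9% (25.1 to 28.7) and 25.5% (23.7 to 27.4) in wild-type replicates 1 and 2. BOP2 took 37.1% (34.9 to 39.3) and 39.5% (37.5 to 41.5) in the tmf pools, against 35.9% (33.9 to 37.9) and 40.6% (38.6 to 42.7) in wild-type pools. BOP3 took 40.5% (38.2 to 42.7) and 35.8% (33.8 to 37.7) in the tmf pools, against 37.2% (35.3 to 39.2) and 33.9% (31.9 to 35.9) in wild-type pools. BOP1's share was lower in both mutant libraries than in both wild-type libraries, with counting intervals that were apart only between mutant replicate 1 and wild-type replicate 1. The shares of BOP2 and BOP3 overlapped between genotypes. Beyond counting error, BOP2's share differed between the wild-type replicates, and BOP3's share in mutant replicate 1 exceeded that in mutant replicate 2 and in wild-type replicate 2. The shares were taken from 1896 and 2355 BOP reads in the tmf pools and from 2344 and 2244 in wild-type pools. They are not corrected for transcript length, so they do not rank the genes by level.

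Of the relatives of the BOP genes, NPR1 could be paired with its name. NPR1 encodes a BTB and ankyrin repeat protein best known as a co-regulator of salicylic acid defence. It was at 359 and 277 normalised reads in tmf pools and at 310.5 and 298 in wild-type pools, with overlapping genotypes and a log2 fold change of 0.05 (95% interval -0.49 to 0.6; limma adjusted p = 0.999). A further 2 identifiers noted as NPR1-type candidates and 9 noted as ALOG candidates were not paired with a name in the reference table. The 2 NPR1-type candidates and 8 of the 9 ALOG candidates passed the filter on low values. None of them passed the test (limma), beside 0.215% of all genes tested.

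The genes tied to BOP function by work in tomato or Arabidopsis did not pass either. None of the 14 listed genes, all of them tested, passed over all genes (limma), beside 0.215% of all genes tested. The list had a median log2 fold change of 0.61, beside 0.04 over all genes tested. At an unadjusted p under 0.05 there were 4, AN, FA, TKN3 and TKN4, each with a positive log2 fold change, beside 6.2% of all genes tested in either direction and 4.67% with a positive change. The tmf pools were both above the wild-type pools in 6 of the 14 (20.7% of all genes tested) and below them in 1 (12.1%). The members of this list were written down with earlier results of these data known, so its direction is a description.

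AN (ANANTHA), the F-box gene that gives floral identity and a reported target of TMF repression, was at 435 and 46.7 normalised reads in tmf pools and at 0.353 and 2.61 in wild-type pools. It was thus higher in mutant replicate 1, whereas all BOP genes were higher in mutant replicate 2. The difference of AN on the log2 scale was 6.03 ± 0.96 (SE; limma adjusted p = 0.0702). Its value in wild-type replicate 1 is that of 1 read, so the size of this difference depends on the pseudocount. FA (FALSIFLORA), the tomato LEAFY homologue, was at 3798 and 2388 in tmf pools and at 1372 and 1399 in wild-type pools (limma adjusted p = 0.318).

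KNOX genes keep meristem cells undifferentiated and are restrained by BOP proteins in Arabidopsis leaves. TKN4 was at 513 and 435 normalised reads in tmf pools, against 206 and 344 in wild-type pools, a log2 fold change of 0.83 (95% interval 0.16 to 1.49; limma adjusted p = 0.622). TKN3 was at 836 and 639 in tmf pools, against 325 and 573 in wild-type pools, a log2 fold change of 0.76 (0.06 to 1.46; adjusted p = 0.742). In both genes the mutant libraries lay above the wild-type libraries. TKN2 was at 2797 and 1062 in tmf pools, against 841 and 1117 in wild-type pools, and TKN1 at 600.3 and 975 in tmf pools, with 651 and 923 in wild-type pools. The genotypes overlapped in both, with log2 fold changes of 0.83 and -0.02 (limma adjusted p of 0.864 and 0.999). PTS, which encodes a KNOX protein without a homeodomain that shapes leaf complexity, was at 1328 and 1174 in tmf pools, against 683 and 1497 in wild-type pools, and overlapped as well (adjusted p = 0.999).

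Boundary genes mark the zone between meristem and organ, where BOP genes are active in Arabidopsis. GOB, a NAC gene of the CUP-SHAPED COTYLEDON type, was at 923 and 758 normalised reads in tmf pools and 694 and 959.6 in wild-type pools (log2 fold change 0.04; limma adjusted p = 0.999). LS, the GRAS gene needed for axillary meristems, was at 219 and 139 in tmf pools and 122 and 131 in wild-type pools (log2 fold change 0.46; adjusted p = 0.973). Apart from boundary genes, the list held J (JOINTLESS), a MADS-box gene of the pedicel joint. J was at 2501 and 1465 in tmf pools and 579 and 1708 in wild-type pools (adjusted p = 0.871). The list also held S (COMPOUND INFLORESCENCE), which encodes a homeobox protein that controls how the inflorescence branches. S was at 16.3 and 13.7 in tmf pools, below its 17 and 27.4 in wild-type pools (adjusted p = 0.999).

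BOP2 and BOP3 are near neighbours on chromosome 10, with 28 listed identifiers between theirs. Of these, 23 passed the filter on low values. None of the 23 passed the test (limma), beside 0.215% of all genes tested. Their median log2 fold change was -0.04, with a range of -1.31 to 2.44. Among the 23, the tmf pools were both above the wild-type pools in 3 (20.7% of all genes tested) and below them in 4 (12.1%). How the authors treated reads that match several genes is not stated in the sources at hand, so BOP1, BOP2 and BOP3 may share reads.

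The closest patterns to each gene were found among 14360 other genes whose mean reached 50 normalised reads, by the distance between log2(value + 1) profiles centred over the 4 libraries. No close match to TMF existed: the nearest gene, Solyc11g068360.1.1, was at a distance of 5 log2 units, with 4.57 and 34.8 normalised reads in tmf pools and 147 and 121 in wild-type pools. The BOP genes had many close matches. The nearest were Solyc04g008870.2.1 for BOP1 (distance 0.038), Solyc10g086400.1.1 for BOP2 (0.029) and Solyc10g047670.1.1 for BOP3 (0.05), none of which carries a name here. BOP1 and BOP2 lay 0.24 apart, and 389 genes (2.71%) were closer to BOP1 than BOP2 was. BOP1 and BOP3 were at a distance of 0.34, with 1193 genes (8.31%) closer to BOP1, and BOP2 and BOP3 at 0.31, with 446 genes (3.11%) closer to BOP2. These distances rest on 4 libraries and describe them only.

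**Figure D4:**
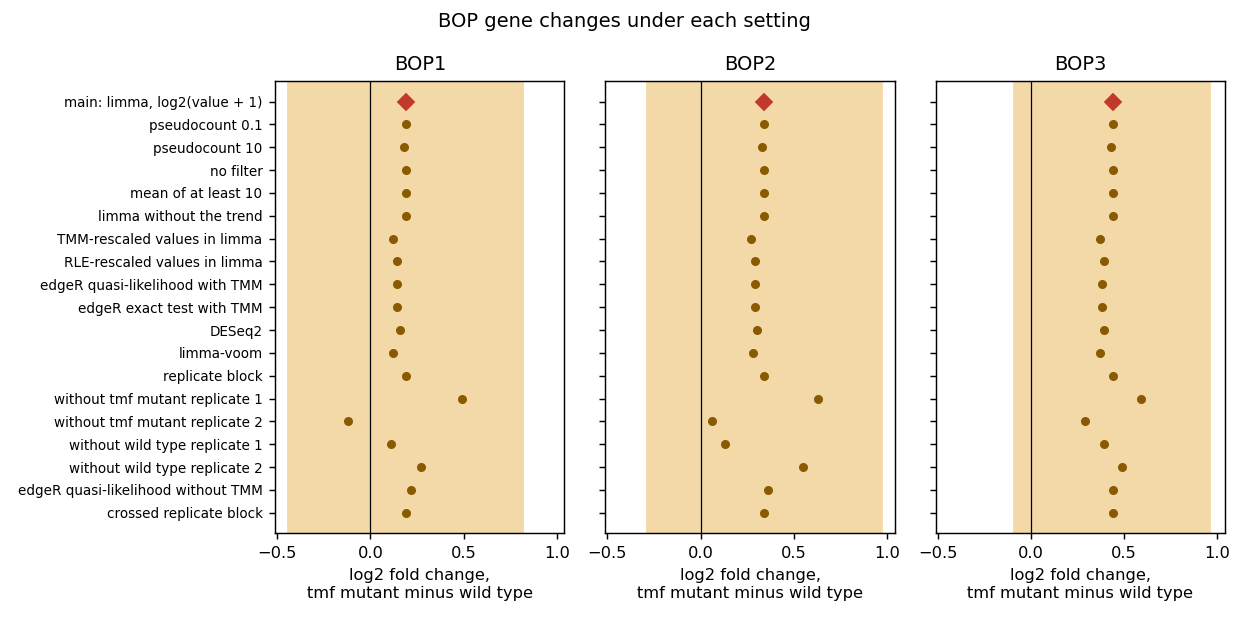
Log2 fold change (tmf mutant minus wild type) of BOP1, BOP2 and BOP3 in the limma fit on all 4 libraries (red diamond) and in 18 other settings (brown points), with the 95% interval of that fit shaded and 0 marked by a line. Tests and scalings leave the values close together, from 0.12 to 0.22 for BOP1, whereas leaving out a library moves BOP1 from -0.12 to 0.49, BOP2 from 0.06 to 0.63 and BOP3 from 0.29 to 0.59.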

How the data were processed

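Meristems were fixed in acetone and RNA was extracted with a PicoPure kit, selected on oligo-dT beads and amplified by PCR, per the labels' protocols. Bowtie 0.12.5 and edgeR are named in the submitters' processing notes. The sources used here give no genome build, annotation, counting tool or use of strand. The authors deposited a signal value per gene and library, scaled so that each library sums to 10000000. All values (100%) were whole multiples of the smallest value above 0 (tolerance 1e-06), which returned whole reads. The deposited unit is normalised, so the main test was limma 3.58.1 (R 4.3.3) with a mean-variance trend and genotype as the only term, run on log2(value + 1) for every gene whose mean was 1 or more, and Benjamini-Hochberg adjustment over 21437 genes (threshold 0.05). A fold change on this scale understates changes of low genes. edgeR 4.0.16, DESeq2 1.42.0 and voom were run on the recovered reads as alternatives, with other pseudocounts, filters and scalings, a replicate block and each library left out. P-values were two-sided. The limma, voom, quasi-likelihood and DESeq2 tests were tried on simulated counts.

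The named genes were TMF, the BOP genes whatever their result, list genes that could be paired with a name, and the closest pattern to each member. Members and lists were chosen with earlier results of these data known. Names were paired with the reference table (assembly SLM_r2.1) by chromosome and by relative order within 5 percentage points. BOP2 and BOP3 met this, with gaps of 2.89 and 2.71 points. BOP1 is on the stated chromosome with a gap of 10.2 points and TMF has no entry, so both names rest on published nomenclature. Of the 14 genes tied to BOP function, 11 met it. Nothing in the labels pairs the replicate numbers. After centring on genotype means, libraries with the same number correlated at -0.258 over 14361 genes. With 2 libraries per genotype, crossed numbers give the same size with the opposite sign. The value therefore cannot show or exclude a shared batch. Separate pools are the replicates. No sequences are shown.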

Additional observations from a re-analysis of the deposited data

How the results depend on the processing

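The edgeR quasi-likelihood fit without TMM scaling and the crossed replicate block were chosen after seeing the data; the other settings were planned. TMF stayed called and lower in each of the 18 alternatives; its log2 fold change ran from -8.17 to -6.69 in 14 settings with all libraries and from -8.27 to -7.43 when a library was left out. None of the BOP genes passed in any of the 18. With all libraries their log2 fold changes were 0.12 to 0.22 for BOP1, 0.27 to 0.36 for BOP2 and 0.37 to 0.44 for BOP3, with adjusted p of 0.593 or above. Leaving out a library gave -0.12 to 0.49 for BOP1, 0.06 to 0.63 for BOP2 and 0.29 to 0.59 for BOP3; BOP1's sign turned at -0.12 without mutant replicate 2. Scaling by TMM or RLE shifted the median change of all genes by -0.0665 and -0.0499. The count of 46 called genes, out of 21437 tested, became 19 out of 17617 with a mean of at least 10. It became 304 with edgeR's exact test, 214 with DESeq2, 368 when the replicate number was a block and 219 when that block was crossed. The cause of these changes was not tested. On the recovered reads edgeR's quasi-likelihood test called 54. The count ranged from 6 (without either wild-type library) to 61 when a library was left out; the lone library of a genotype is then assumed to vary like the other pair. A replicate block cannot alter the fold changes of this balanced design (-7.85 for TMF, 0.19 for BOP1, 0.34 for BOP2 and 0.44 for BOP3), only their error; with it TMF was called and the BOP genes were not. The labels do not say that the numbers pair the samples.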
